A study of Homo sapiens with 12 samples.

Results

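The libraries from cells rescued with DICER R821E were compared directly with those from cells rescued with DICER E5, with no wild-type library in the contrast. Small RNA had been sequenced in HCT116, a human colorectal carcinoma line, by AQ-seq, a small-RNA sequencing protocol designed to lower ligation bias, and spike-in RNAs were counted in the same tables. Libraries were chosen by their titles, which gave 4 of the 12 libraries: 2 of R821E and 2 of E5. The other groups of 2 libraries each, used for the spread between replicates and as values to set beside the comparison, were R821A, A5, ΔPAZ helix and wild type (WT). Every group, WT included, is labelled as a DICER rescue of HCT116, so all carry a reintroduced DICER. By its name, R821E has an arginine of DICER replaced by glutamate, and R821A has the same residue replaced by alanine. E5 and A5 are used here as the labels write them, since the labels do not say which residues they change, whether a rescue line is 1 clone or how much DICER it made. Nor do the labels tie the libraries of a group to different cultures. The p-values therefore reflect the spread between libraries, which may be technical.

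DICER is the RNase III enzyme that measures a precursor hairpin from its open end and cuts off the loop, which leaves a duplex of a 5p and a 3p strand. An Argonaute protein keeps one strand as the guide and the other is degraded. Argonaute favours strands that begin with U or A and whose 5′ end is the less stably paired. The guide recognises its targets mainly through its seed, bases 2 to 8. The cut by DICER sets the 5′ end of the 3p strand, whereas the earlier cut by DROSHA sets that of the 5p strand.

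The sequences that carry the main differences are shown first, as RefSeq gives them on GRCh38.p14. RefSeq gave a mature sequence for 331 of the 374 miRNA entries tested. The MIR27A precursor (chr19:13836440-13836517, minus strand) lies in an exon of the antisense transcript AC020916.1, and the MIR29A precursor (chr7:130876747-130876810, minus strand) lies in an intron of the lincRNA AC016831.6. Both are shown 5′ to 3′ with the 5p and then the 3p strand in capitals, because the 3p strand was lower in R821E and the 5p strand was not.
MIR27A: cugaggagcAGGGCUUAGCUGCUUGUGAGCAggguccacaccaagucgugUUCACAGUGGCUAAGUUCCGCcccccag
MIR29A: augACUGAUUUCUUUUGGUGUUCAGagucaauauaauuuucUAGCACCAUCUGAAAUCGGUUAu
The next 4 miRNAs share the seed AUUGCAC, in capitals. The 3 that come from a 3p arm fell in R821E. miR-25-3p (chr7:100093571-100093592, minus strand) lies in an intron of MCM7, and miR-92a-3p is made from MIR92A1 (chr13:91351361-91351382, plus strand), in an exon of MIR17HG, and from a copy on the X chromosome. miR-92b-3p comes from chr1:155195237-155195258 (plus strand), and miR-32-5p from an intron of TMEM245 at chr9:109046272-109046293 (minus strand).
miR-25-3p: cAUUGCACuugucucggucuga
miR-92a-3p: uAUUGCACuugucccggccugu
miR-92b-3p: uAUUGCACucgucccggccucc
miR-32-5p: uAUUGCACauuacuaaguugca
The following strands, with the seed in capitals, are among the entries that fell most in R821E. miR-193a-3p (chr17:31560050-31560071, plus strand) is in no annotated host gene, miR-126-3p (chr9:136670653-136670674, plus strand) is intronic in EGFL7, miR-33b-5p (chr17:17813897-17813916, minus strand) in SREBF1 and miR-107 (chr10:89592756-89592778, minus strand) in PANK1, and miR-27a-3p is the 3p strand of the MIR27A precursor.
miR-193a-3p: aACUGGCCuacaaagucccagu
miR-126-3p: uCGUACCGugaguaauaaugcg
miR-33b-5p: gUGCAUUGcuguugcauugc
miR-107: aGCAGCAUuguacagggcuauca
miR-27a-3p: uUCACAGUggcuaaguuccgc
Entries that were higher in R821E follow, again with bases 2 to 8 in capitals. miR-21-5p (chr17:59841273-59841294, plus strand) is exonic in VMP1, and miR-8072 (chr12:123364814-123364833, minus strand) is exonic in SBNO1. miR-1275 (chr6:34000018-34000034, minus strand), miR-1246 (chr2:176601024-176601042, minus strand) and miR-1268a (chr15:22225308-22225325, minus strand) lie in no annotated host gene.
miR-21-5p: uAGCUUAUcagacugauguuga
miR-1275: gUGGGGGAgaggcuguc
miR-1246: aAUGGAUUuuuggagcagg
miR-1268a: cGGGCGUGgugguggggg
miR-8072: gGCGGCGGggagguaggcag
The last set holds the strands of 2 hairpins whose balance moved the other way, towards 3p: miR-26b, intronic in CTDSP1 (chr2:218402657-218402677 for 5p and chr2:218402692-218402712 for 3p, plus strand), and let-7a, whose 5p sequence is made by 3 loci and whose 3p sequence is annotated at 2 of them.
miR-26b-5p: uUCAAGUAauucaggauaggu
miR-26b-3p: cCUGUUCUccauuacuuggcu
let-7a-5p: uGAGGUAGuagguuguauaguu
let-7a-3p: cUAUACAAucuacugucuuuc

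R821E libraries held fewer miRNA reads per spike-in read and a smaller share of 3p strands than E5 libraries. The R821E libraries had 229302 and 144067 miRNA counts, and the E5 libraries 179615 and 227199. In these 4 libraries 3 counts equal 12.6 to 26.0 CPM (counts per 1000000, on the TMM scale described below), a floor that covers counting error only. miRNA counts per spike-in count were 15.3 and 13.4 in R821E, against 17.7 and 16.5 in E5. In bulk RNA, fewer cells that hold a miRNA and less of it per cell cannot be told apart. Of all miRNA counts, entries named 3p took 11.1% and 11.9% in R821E, against 18.8% and 21.9% in E5, or 11.5% ± 0.590 in R821E and 20.4% ± 2.23 in E5 (SD, n = 2 each). The ratio of all 5p to all 3p counts was 7.45 and 6.73 in R821E, against 4.01 and 3.31 in E5. miR-21-5p alone took 58.0% and 54.0% in R821E, against 47.2% and 42.6% in E5, and after its removal the 3p share was 26.4% and 25.9% in R821E, against 35.5% and 38.2% in E5. Fewer entries were detected in R821E, 665 and 617, against 690 and 775 in E5. Library totals overlapped between the groups. For each of the shares and ratios and for the number of detected entries the R821E and E5 libraries did not overlap, and the two-sided exact permutation p was 0.33, the smallest that 2 libraries against 2 allow.

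**Figure D1:**
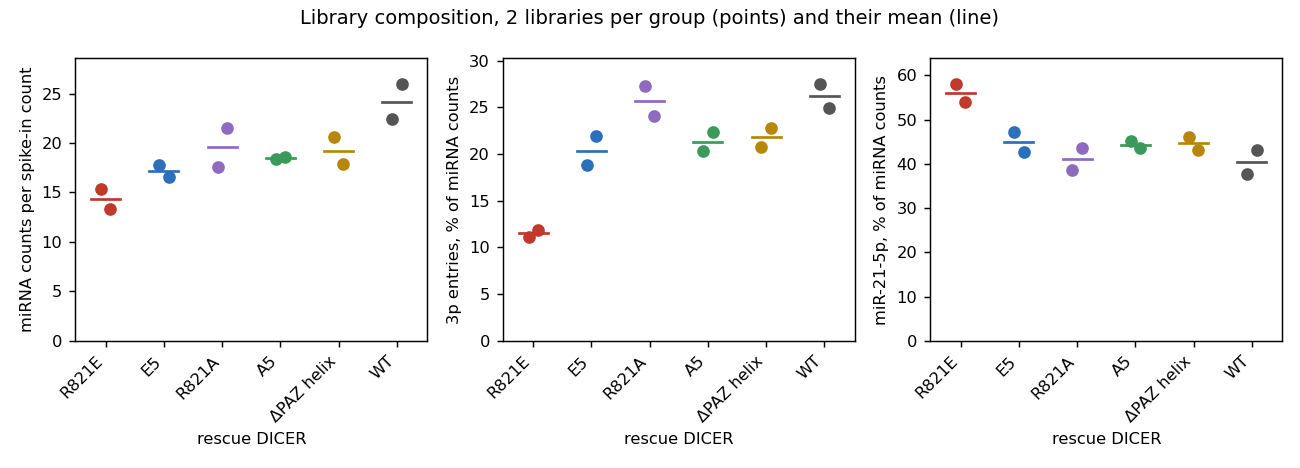
miRNA counts per spike-in count, the share of miRNA counts from 3p entries and the share from miR-21-5p, each point 1 library and each line the mean of 2. The R821E libraries have 11.1% and 11.9% of counts from 3p entries, against 18.8% and 21.9% in E5, and in the middle panel they lie below all 10 other libraries.

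Levels were compared on a pair of scales. On the first, the TMM scale, library sizes were adjusted by edgeR's trimmed mean of M-values over the tested entries, and CPM values are relative to that adjusted size. On the second, the spike-in scale, the summed spike-in count of a library replaced its size. On the TMM scale 112 of 374 tested entries were called at an adjusted p under 0.05 (29.9%, edgeR quasi-likelihood test with Benjamini-Hochberg adjustment), 61 of them higher in R821E (16.3%) and 51 lower (13.6%). The median log2 fold change over all tested entries, R821E minus E5, was -0.04. 24 rises and 25 falls were larger than 2-fold. On the spike-in scale the median was -0.74, and 140 entries were called (37.4%), 136 lower in R821E (36.4%) and 4 higher (1.07%). All 51 entries that fell on the TMM scale were also lower on the spike-in scale, whereas 4 of the 61 that rose were called higher there. The R821E libraries were both below both E5 libraries in 58.8% of entries against the spike-ins and both above in 8.29%. A further 85 entries that passed neither way on the TMM scale were lower against the spike-ins. The 30 spike-ins themselves differed by a median log2 of -0.06, R821E minus E5, after scaling to their sum, with a range of -0.76 to 0.63.

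The split between rises and falls moved with the scaling. Library totals with no further factor gave 11 higher and 103 lower (median -0.50), TMM factors taken over all entries before the filter gave 36 higher and 68 lower (median -0.23), and no filter gave 29 higher and 58 lower. A rise on the TMM scale is therefore a rise relative to the other miRNAs of the same library. The number of calls also rested on single libraries: leaving out the first or the second R821E library gave 39 and 60 calls, and leaving out the first or the second E5 library gave 96 and 37, each with the lone library assumed to vary like the other groups. Of the 51 falls 14 stood without any 1 of these 4 libraries, 9 of them 3p and 5 of them 5p strands, and of the 61 rises 11 did, 6 of them 5p strands, 0 of them 3p and 5 with no arm in their name. The 972 entries with too few counts for the test, of which 352 had no count in these 4 libraries, are not described further.

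The arms divided unevenly between rises and falls. Of 148 tested 3p entries, 36 fell and 15 rose on the TMM scale, with a median log2 fold change of -0.42. Among 174 tested 5p entries 13 fell and 32 rose, with a median of 0.16. The 52 entries with no arm in their name had 2 falls and 14 rises and a median of 0.35. With spike-in scaling all 3 medians were below 0, at -1.11 for 3p entries, -0.54 for 5p entries and -0.34 for entries with no arm.

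**Figure D2:**
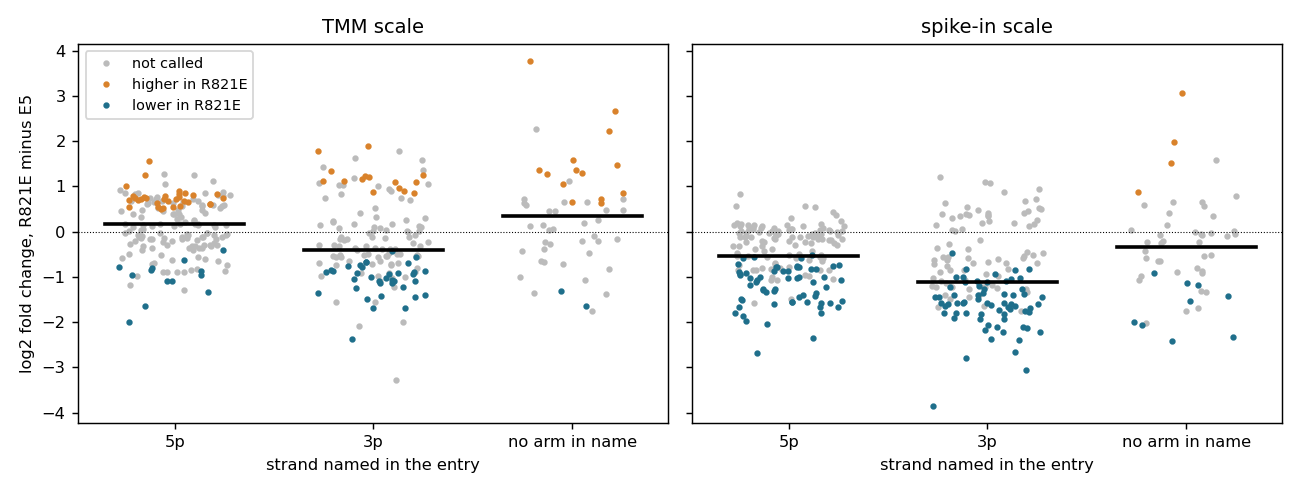
Log2 fold change of each tested entry, R821E minus E5, by the strand named in the entry, on the TMM scale (left) and the spike-in scale (right). Each point is 1 entry, colours mark the call and black lines are medians. The median of 3p entries is -0.42 on the left and -1.11 on the right, below that of 5p entries in both panels.

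The largest falls were in guide strands with varied known roles. miR-193a-3p, which represses the survival factor MCL1, had 61.3 and 43.4 CPM in R821E, against 294 and 268 CPM in E5, a log2 fold change of -2.38 ± 0.345 (SE, adjusted p = 8.26e-04). miR-194-5p, an intestinal epithelial miRNA induced by p53 together with miR-192, had 42.9 and 43.4 CPM in R821E, against 155 and 193 CPM in E5, a log2 fold change of -2.01 ± 0.389 (SE, adjusted p = 0.00283). In each entry both R821E libraries lay below both E5 libraries, which the rule that named the largest falls required. The same held for 120 of 374 tested entries (32.1%). The counts behind them were small, 5 to 10 per R821E library and 28 to 64 per E5 library.

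miR-25-3p, of the miR-106b-25 cluster, was the fall with the smallest p. It had 564 and 599 CPM in R821E, against 1695 and 2039.9 CPM in E5 with 4086 and 3469 CPM in WT, a log2 fold change of -1.69 ± 0.160 (SE, adjusted p = 2.43e-05). Against the spike-ins it had 6.15 and 6.40 counts per 1000 spike-in counts in R821E, against 30.2 and 35.4 in E5. The other 3p members of its seed family, shown above, were lower as well, though the call of miR-92b-3p rested on single libraries. That call was lost when R821E replicate 1, R821E replicate 2 or E5 replicate 1 was left out. miR-92a-3p had 2189 and 2171 CPM in R821E, against 4674 and 4641 CPM in E5, a log2 fold change of -1.10 ± 0.126 (SE, adjusted p = 1.16e-04), and miR-92b-3p had 178 and 208 CPM in R821E, against 449 and 289 CPM in E5, a log2 fold change of -0.93 ± 0.296 (SE, adjusted p = 0.0305). miR-32-5p, which has the same seed and comes from a 5p arm, had 1379 and 1129 CPM in R821E, against 1207 and 1369.7 CPM in E5, overlapping groups with a log2 fold change of -0.04 ± 0.194 (SE, adjusted p = 0.902). Against the spike-ins miR-32-5p was called lower, with a log2 fold change of -0.74 ± 0.182 (SE, adjusted p = 0.00584).

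miR-33b-5p, which is made from an intron of the sterol regulator SREBF1 and represses the cholesterol exporter ABCA1, had 233 and 287 CPM in R821E, against 769.8 and 846 CPM in E5, a log2 fold change of -1.65 ± 0.286 (SE, adjusted p = 0.00209). The other strands of the miR-33 pair, looked at after their values were seen, were called lower too, miR-33a-5p with a log2 fold change of -0.96, miR-33a-3p with -1.24 and miR-33b-3p with -0.85. The call of miR-33a-5p stood without any 1 library and those of the 3p strands did not. miR-33a and miR-33b were among 5 hairpins with both strands called lower, next to miR-126, miR-30e and miR-1307. miR-126-3p, known from endothelium, had 92.0 and 122 CPM in R821E, against 227 and 444 CPM in E5, a log2 fold change of -1.69 ± 0.384 (SE, adjusted p = 0.0072). miR-107, which represses DICER1 mRNA, had 172 and 122 CPM in R821E, against 271 and 653 CPM in E5, a log2 fold change of -1.65 ± 0.494 (SE, adjusted p = 0.0273). Its relative miR-103a-3p had 1299.7 and 1007 CPM in R821E, against 1506 and 2839.9 CPM in E5, and did not pass (adjusted p = 0.0656). miR-210-3p, the hypoxia-induced miRNA, had 313 and 217 CPM in R821E, against 587 and 834 CPM in E5, a log2 fold change of -1.41 ± 0.309 (SE, adjusted p = 0.0057).

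miR-27a-3p was the most abundant of the 10 largest falls and is known to repress the adipogenic receptor PPARG. It had 4255 and 4610.4 CPM in R821E, against 9825 and 14907 CPM in E5, a log2 fold change of -1.48 ± 0.225 (SE, adjusted p = 0.00114). miR-365a-3p and miR-365b-3p, whose mature sequences are identical, fell by 1.42 and 1.45 on the log2 scale. The sources used here do not say how a read that matches both was counted, so the pair is 1 observation. Of the 10 falls, the calls of miR-193a-3p, miR-194-5p, miR-25-3p, miR-33b-5p and miR-27a-3p stood when any 1 of the 4 libraries was left out. Without E5 replicate 2 the adjusted p was 0.238 for miR-107, 0.0931 for miR-126-3p, 0.188 for miR-365a-3p, 0.184 for miR-365b-3p and 0.0588 for miR-210-3p (edgeR, Benjamini-Hochberg). Leaving out either R821E library also ended the calls of miR-107 and both miR-365 entries, replicate 1 that of miR-126-3p and replicate 2 that of miR-210-3p, with adjusted p of 0.0567 to 0.141.

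**Figure D3:**
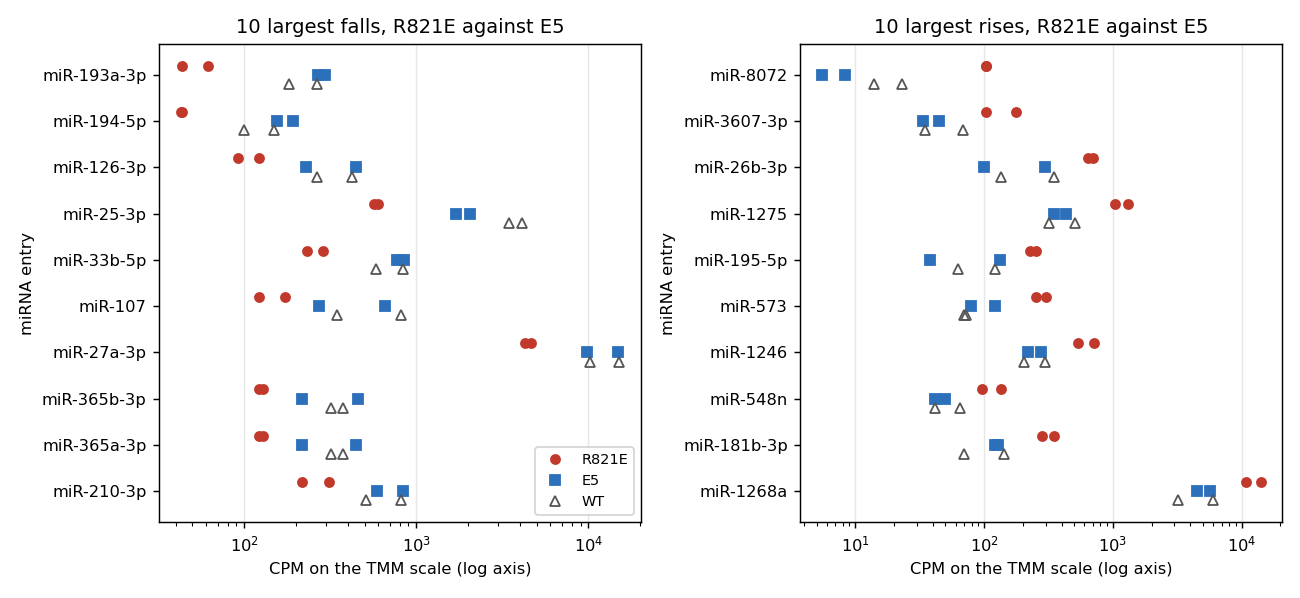
CPM on the TMM scale (log axis) of the 10 largest falls (left) and rises (right), with 2 R821E libraries (circles), 2 E5 libraries (squares) and 2 WT libraries (open triangles) per entry. For each entry the R821E circles stand apart from the E5 squares, as the rule that chose the entries required. miR-25-3p has 564 and 599 CPM in R821E, against 1695 and 2039.9 CPM in E5.

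Families were described by counts over their tested members, beside 16.3% of all entries higher and 13.6% lower. In the miR-23/27/24 clusters 4 of 11 entries fell, each of them a 3p strand, and the median log2 fold change of the 11 was -0.09. Besides miR-27a-3p these were miR-24-3p (-1.13), miR-23a-3p (-0.99) and miR-27b-3p (-0.69), and all 4 calls stood without any 1 library. Per 1000000 miRNA counts the miR-23/27/24 entries summed to 15879 and 18602 in R821E, against 37953 and 52249 in E5. miR-24-3p had 5217 and 5288 CPM in R821E, against 9554 and 13374 CPM in E5. Of the miR-221/222 pair, which represses the cell cycle inhibitor CDKN1B, both 3p strands fell. The 5p strands were not called, with log2 fold changes of 1.28 for miR-221-5p and -0.32 for miR-222-5p. miR-221-3p had 8804 and 7988 CPM in R821E, against 11957 and 14932 CPM in E5, a log2 fold change of -0.68 ± 0.142 (SE, adjusted p = 0.00449), and miR-222-3p had 36209 and 34773 CPM in R821E, against 44235 and 50779 CPM in E5, a log2 fold change of -0.42 ± 0.136 (SE, adjusted p = 0.032). The call of miR-221-3p was lost without E5 replicate 2 (adjusted p = 0.063). That of miR-222-3p was lost when any of R821E replicate 1, R821E replicate 2 or E5 replicate 2 was left out, with adjusted p of 0.116 to 0.195, while on the spike-in scale its log2 fold change was -1.12 ± 0.134 (SE, adjusted p = 3.18e-05).

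The miR-200 family, which represses the mesenchymal factors ZEB1 and ZEB2, had 2 falls among its 6 tested entries and a median log2 fold change of -0.73. miR-200a-3p had 349 and 226 CPM in R821E, against 493 and 578 CPM in E5, and miR-200b-3p had 638 and 755 CPM in R821E, against 1102 and 1231 CPM in E5, with log2 fold changes of -0.88 for miR-200a-3p and -0.75 for miR-200b-3p. In the miR-148/152 family, known to target DNMT1, miR-148a-3p (-0.91) and miR-148b-3p (-1.10) fell among 4 tested entries. The miR-30 family was mixed, with miR-30c-5p (-0.41), miR-30e-5p (-0.62) and miR-30e-3p (-0.75) lower and miR-30d-5p (0.71) and miR-30d-3p (0.90) higher among 10 tested entries. In the miR-130/301/454 family 1 of 9 entries fell, miR-130b-3p (-1.05), and 1 rose, miR-454-5p (0.74). Of the calls in this paragraph, those of miR-30e-5p and of miR-194-5p, given next, stood without any 1 library. Among 5 tested p53-induced entries, which include miR-34a and miR-192, 1 fell, miR-194-5p. The 4 tested miR-125 entries, with a median log2 fold change of -0.37, and the 3 tested miR-320 entries, with a median of 0.12, had no member past the threshold on the TMM scale and 1 each past it, lower, on the spike-in scale.

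The miR-17-92 cluster and its paralogs held calls in both directions. The 4 falls among 20 tested entries were miR-25-3p, miR-92a-3p, miR-19a-3p (-0.78) and miR-19b-3p (-1.24), which are 3p guides. Of the 7 rises 5 were 5p strands: miR-18a-5p (0.84), miR-93-5p (0.79), miR-106b-5p (0.70), miR-20a-5p (0.54) and miR-19b-1-5p (0.50). The other 2 were the 3p strands miR-93-3p (1.13) and miR-20a-3p (1.09), so of 9 tested 3p entries 4 fell and 2 rose. miR-93-5p had 3728 and 3152 CPM in R821E, against 2033 and 1960.3 CPM in E5, and miR-25-3p, made from the same MCM7 intron, was lower as given above. The calls of miR-25-3p, miR-92a-3p and miR-18a-5p stood without any 1 library. Against the spike-ins none of the 7 rises was called higher, the log2 fold change of miR-93-5p being 0.08 there, and 7 of the 20 entries were called lower.

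The most abundant entry, miR-21-5p, known as a repressor of PDCD4, had 815497 and 675416 CPM in R821E, against 469183 and 405444 CPM in E5, a log2 fold change of 0.77 ± 0.159 (SE, adjusted p = 0.00424). Against the spike-ins it had 8886 and 7217 counts per 1000 spike-in counts in R821E, against 8365 and 7041 in E5, overlapping groups with a log2 fold change of 0.06 ± 0.197 (SE, adjusted p = 0.853). Its higher CPM in R821E thus stood beside a level per spike-in that was not called different, and the call on the TMM scale was lost with library totals (adjusted p = 0.0686) and without R821E replicate 1 (adjusted p = 0.0566, edgeR). Among the 10 entries highest in E5, 5 others rose on the TMM scale. miR-100-5p, which represses MTOR, had 30912 and 29486 CPM in R821E, against 19739 and 15950.4 CPM in E5, and miR-10a-5p, encoded in the HOXB cluster, had 22188 and 21315 CPM in R821E, against 14200.4 and 14195 CPM in E5. miR-16-5p, a repressor of BCL2, had 19631 and 18685 CPM in R821E, against 13679.8 and 12771 CPM in E5. Their log2 fold changes were 0.76, 0.62 and 0.53, and those of miR-4521 and miR-1260b were 0.65 and 0.71, all called. Against the spike-ins these 5 entries had log2 fold changes of -0.17 to 0.05, with no call. With library totals the adjusted p of the 5 ranged from 0.122 to 0.622. Without E5 replicate 2 it was 0.0634 for miR-10a-5p, 0.0671 for miR-16-5p and 0.208 for miR-4521, and these 3 calls were also lost without R821E replicate 1. miR-31-5p, had 27552 and 27289 CPM in R821E, against 31497 and 46879 CPM in E5, and did not pass on the TMM scale (adjusted p = 0.0957), while on the spike-in scale its log2 fold change was -1.22 ± 0.208 (SE, adjusted p = 4.41e-04).

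Rises above 2-fold were found mostly in less abundant entries. miR-1275 had 1312 and 1042 CPM in R821E, against 349 and 436 CPM in E5, a log2 fold change of 1.58 ± 0.270 (SE, adjusted p = 0.00192). It was also called higher against the spike-ins, with 14.3 and 11.1 counts per 1000 spike-in counts in R821E, against 6.22 and 7.56 in E5, a log2 fold change of 0.88 ± 0.285 (SE, adjusted p = 0.0252). That second call was lost without R821E replicate 1 (adjusted p = 0.176) and without E5 replicate 1 (adjusted p = 0.125). The 3 other entries called higher against the spike-ins were sparse. miR-8072 had 17 and 12 counts in R821E, against 1 and 2 in E5, a ratio of library-size-adjusted counts of 14.6 (95% counting interval 4.51 to 74.7). miR-1257 had 11 and 7 counts in R821E, against 3 and 1 in E5, a ratio of 6.78 (2.23 to 27.5). miR-3662 had 12 and 10 counts in R821E, against 2 and 5 in E5. miR-8072 met the naming rule of a mean of at least 100 CPM through R821E alone. The same held for miR-3607-3p, miR-195-5p, miR-548n and miR-548b-5p, given below. The falls miR-193a-3p, miR-194-5p and miR-330-3p met it through E5 alone. Naming by either group in this way favours large differences. The E5 counts of these 3 entries were near the floor of 3 counts, so the sizes of their rises are uncertain. Leaving out 1 library ended the spike-in call of miR-3662 in each of 4 cases and that of miR-1257 in 3 of 4, with adjusted p up to 0.332.

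Among the other large rises on the TMM scale, miR-1246 had 717 and 538 CPM in R821E, against 277 and 218 CPM in E5, a log2 fold change of 1.36 ± 0.259 (SE, adjusted p = 0.00266). miR-1268a had 10803 and 14048 CPM in R821E, against 5655 and 4494 CPM in E5, a log2 fold change of 1.29 ± 0.303 (SE, adjusted p = 0.0109), and its near-copy miR-1268b gave 1.27. miR-573 had 300.4 and 252 CPM in R821E, against 122 and 79.6 CPM in E5, and miR-195-5p, of the miR-15/16 family, had 251 and 226 CPM in R821E, against 133 and 37.7 CPM in E5. miR-3607-3p, whose locus overlaps a small nucleolar RNA, had 178 and 104 CPM in R821E, against 44.3 and 33.5 CPM in E5. Of 2 strands that are usually degraded, miR-26b-3p had 644 and 703 CPM in R821E, against 299 and 101 CPM in E5. The other, miR-181b-3p, had 282 and 347 CPM in R821E, against 127 and 121 CPM in E5. miR-548n had 135 and 95.5 CPM in R821E, against 49.8 and 41.9 CPM in E5. In each of these 8 entries both R821E libraries were above both E5 libraries, which the rule that named them required. The same held for 122 of 374 tested entries (32.6%). Calls on the TMM scale stood without any 1 library for miR-1275, miR-1246 and miR-8072, the last with very low counts in E5. Without E5 replicate 2 the adjusted p was 0.0711 for miR-1268a, 0.0859 for miR-573, 0.0996 for miR-26b-3p, 0.13 for miR-3607-3p, 0.133 for miR-181b-3p, 0.169 for miR-548n and 0.25 for miR-195-5p. Each of these 7 calls was also lost without at least 1 of the R821E libraries, and those of miR-181b-3p and miR-548n also without E5 replicate 1.

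Several families held rises on the TMM scale, where 16.3% of all tested entries were called higher. None of their members was called higher against the spike-ins. Of 7 tested entries of the miR-181 family 4 rose, miR-181a-5p (0.52), miR-181b-5p (0.71), miR-181a-3p (0.97) and miR-181b-3p (1.33), and the family median was 0.71, against 0.00194 when scaled by spike-ins. In the miR-15/16 family 4 of 11 entries rose, among them miR-15a-5p (0.73) and miR-16-2-3p (0.86), with a median of 0.38 that turned to -0.33 relative to spike-ins. 3 of 7 miR-10/99/100 entries rose, and their median of 0.16 turned to -0.54. miR-183-5p (0.67) rose among the 6 entries of the miR-183/96/182 cluster, miR-532-5p (0.73) among 11 of the miR-532/500/660 cluster and miR-26b-3p among 5 miR-26 entries. These single rises were near or under the share of all entries and do not mark their families out. The calls of miR-181b-5p, miR-183-5p and miR-100-5p stood without any 1 library.

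The let-7 family, which represses cell growth genes such as LIN28B and HMGA2, held 4 rises and 1 fall on the TMM scale. Over all tested entries 16.3% were higher and 13.6% lower. Of 19 tested entries, let-7b-5p (0.55) was the 5p strand that rose, let-7a-3p (1.21), let-7b-3p (1.26) and let-7f-2-3p (1.09) rose as well, and let-7i-3p (-0.89) fell. let-7a-3p had 1545 and 1624 CPM in R821E, against 769.8 and 599 CPM in E5. The 9 tested 5p entries with the seed GAGGUAG had a median log2 fold change of -0.22, and 4 3p entries with the seed UAUACAA, miR-98-3p among them, had a median of 1.08. Of the tested 3p entries with other seeds, 4 were not called: let-7e-3p (-1.55), let-7d-3p (0.30), let-7g-3p (0.52) and let-7a-2-3p (1.79). No test of the difference between strands was run. Reads that match several let-7 members could have been counted for more than 1 of them, so single members are uncertain. Each of these 5 let-7 calls was lost when at least 1 of the 4 libraries was left out. Against the spike-ins 9 of the 19 entries were called lower and 0 higher. The family median was -0.40 there, against 0.30 on the TMM scale.

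Entries that bypass parts of the canonical pathway were looked at as a further group. miR-451a, which is matured by AGO2 without DICER, had 245 and 313 CPM in R821E, against 210.5 and 188 CPM in E5, with groups that did not overlap and a log2 fold change of 0.47 ± 0.264 (SE, adjusted p = 0.197) that did not pass, and on the spike-in scale it was -0.23 ± 0.266 (SE, adjusted p = 0.551). miR-484 and miR-320a, whose precursors begin at a transcription start site, were not called on the TMM scale, and both were lower against the spike-ins. Only 2 mirtron entries of 20 listed were tested, and neither was called on the TMM scale. Among 11 tested entries listed for overlap with snoRNA, tRNA or rRNA sequences there were 4 rises. These were miR-3607-3p (1.90), miR-4485-3p (1.22), miR-4454 (1.06) and miR-3653-5p (1.00). The list median was 1.00, or 0.30 relative to spike-ins. In the annotation used, miR-4485-3p lies in an exon of the protein-coding gene MTRNR2L8. miR-4454 had 5830.5 and 5348 CPM in R821E, against 3223 and 2149 CPM in E5. The entries with no arm in their name and a number above 1000, a division made after values were seen, had 12 rises among 29 tested. Their median log2 fold change was 0.65, and 16.3% of all tested entries rose. Relative to spike-ins their median was -0.06, with 4 entries called higher and 3 lower.

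**Figure D4:**
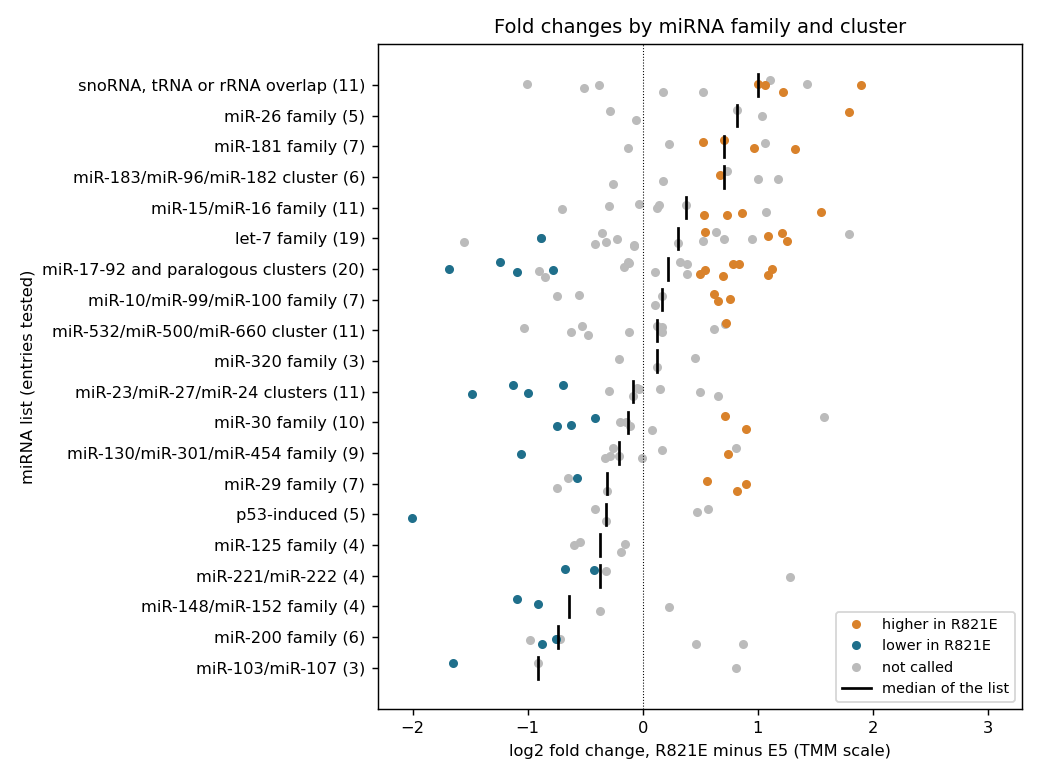
Log2 fold change, R821E minus E5, on the TMM scale for the tested members of each miRNA list with at least 3 of them; each point is 1 entry, colours mark the call and black ticks are list medians. The median of the miR-181 family is 0.71 and that of the miR-200 family -0.73, and the miR-17-92 and paralogous clusters hold calls in both directions.

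The first base of the strand was set beside the calls on the TMM scale. Of 47 tested 3p strands beginning with U, 20 fell (42.6%) and 2 rose (4.26%), and their median log2 fold change was -0.78. 3p strands beginning with A had 6 falls and 3 rises among 33 (median -0.19), and those beginning with C had 8 falls and 6 rises among 44 (median -0.10). Among 5p strands beginning with U, 7 of 74 fell and 13 rose (median 0.10), and among those beginning with A, 1 of 39 fell and 9 rose (median 0.26). 5p strands beginning with G had 3 falls and 2 rises among 13 and a median of -0.75, close to that of 3p strands beginning with U. The 5p strands beginning with C had 1 fall and 3 rises among 25 (median -0.12), and the 3p strands beginning with G 2 falls and 1 rise among 12 (median -0.45). miR-27a-3p, miR-126-3p, miR-92a-3p and miR-29a-3p, printed above, are 3p strands that begin with U. Of the other 3p falls printed there, miR-92b-3p begins with U, miR-193a-3p with A and miR-25-3p with C. Strands of up to 20 bases had 8 rises and 1 fall among 19, a median of 0.49. Relative to spike-ins their median was -0.21, with 2 called higher and 4 lower. On that scale the medians were -0.60 for 5p strands beginning with U, -0.44 for those beginning with A and -1.48 for 3p strands beginning with U. No 5p or 3p entry was called higher there. These are descriptions over entries that share loci, families and, within a hairpin, their reads' source, and they carry no test.

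The balance of strands within a hairpin does not depend on the scaling. It was measured as the log2 ratio of 5p to 3p counts, with 0.5 added to each, for the 69 hairpins in which each arm averaged 20 counts or more. Of these, 13 were called with limma (18.8%), 11 shifted to 5p in R821E (15.9%) and 2 to 3p (2.9%). The median shift over all 69 was 0.19. Both R821E libraries lay above both E5 libraries in 28 hairpins (40.6%), below them in 18 (26.1%), and the groups overlapped in 23. Of the 22 hairpins led by their 3p strand in E5, 9 shifted to 5p, and of the 47 led by 5p, 2 shifted to 5p and 2 to 3p. The same E5 ratios enter this grouping and the shift, so the split is not independent of the shift. The leading strand on average differed between R821E and E5 in 8 hairpins. Among them was miR-221, led by 3p in E5 and by 5p in R821E. Its shift of 2.08 ± 0.680 (SE, adjusted p = 0.0605, limma) was the largest of the 69 and was not called. Leaving out the first or the second R821E library gave 8 and 5 calls, and leaving out the first or the second E5 library gave 13 and 5.

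MIR27A and MIR29A, printed above, had the smallest p-values, and the shift was larger in MIR27A. MIR27A had 188 and 131 5p counts with 694 and 531 3p counts in R821E, against 142 and 199 5p counts with 1774 and 3559 3p counts in E5. The log2 ratio of 5p to 3p was -1.88 and -2.02 in R821E, against -3.64 and -4.16 in E5, a shift of 1.95 ± 0.225 (SE, adjusted p = 5.86e-05), and this call held without any 1 library. On the TMM scale its 3p strand fell and its 5p strand had 1153 and 1137 CPM in R821E, against 786 and 834 CPM in E5, with an adjusted p of 0.0586.

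MIR29A changed its leading strand. It had 2125 and 1315 5p counts with 887 and 576 3p counts in R821E, against 1290 and 1595 5p counts with 1346 and 1917 3p counts in E5, a shift of 1.39 ± 0.157 (SE, adjusted p = 5.86e-05). miR-29a-5p rose, with 13028 and 11417 CPM in R821E, against 7144 and 6681 CPM in E5, and miR-29a-3p, known as a repressor of collagen mRNAs, fell, with 5438 and 5001 CPM in R821E, against 7455 and 8029.6 CPM in E5. Their log2 fold changes were 0.82 ± 0.138 (SE, adjusted p = 0.00179) for 5p and -0.57 ± 0.131 (SE, adjusted p = 0.00773) for 3p. Among 102 hairpins with both arms tested this was the 1 with calls in opposite directions on the TMM scale. Relative to spike-ins miR-29a-5p had a log2 fold change of 0.12 ± 0.171 (SE, adjusted p = 0.646) and miR-29a-3p of -1.27 ± 0.171 (SE, adjusted p = 8.44e-05). In the miR-29 family 3 of 7 tested entries rose, all 5p strands: miR-29a-5p, miR-29b-1-5p (0.56) and miR-29c-5p (0.90), of which miR-29a-5p stood without any 1 library. The call of miR-29a-3p was lost without R821E replicate 2 (adjusted p = 0.0583) and without E5 replicate 2 (adjusted p = 0.0569, edgeR). The related miR-29c gave the same direction, a shift of 1.64 ± 0.310 (SE, adjusted p = 0.00339) from 36 and 11 3p counts in R821E, against 47 and 61 in E5.

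Other hairpins shifted to 5p with calls that rested on single libraries. miR-22 had log2 ratios of -0.71 and -0.88 in R821E, against -2.16 and -3.42 in E5, a shift of 1.99 ± 0.518 (SE, adjusted p = 0.0203). Its 3p strand had 1067 and 1042 CPM in R821E, against 1988 and 6995 CPM in E5, and the E5 libraries differed from each other by more than the lower of them differed from R821E. The shift was not called without E5 replicate 2 (adjusted p = 0.149, limma). miR-200b had log2 ratios of -1.56 and -1.22 in R821E, against -2.49 and -3.59 in E5, a shift of 1.65 ± 0.383 (SE, adjusted p = 0.0119). miR-331 had log2 ratios of 0.19 and 0.45 in R821E, against -0.96 and -1.79 in E5, a shift of 1.69 ± 0.374 (SE, adjusted p = 0.0098). Without R821E replicate 2 the adjusted p was 0.0579 for miR-331, 0.0657 for miR-200b, 0.0516 for miR-29c and 0.0927 for miR-22, whose call was also lost without R821E replicate 1 (adjusted p = 0.0767). Without E5 replicate 2 it was 0.0906 for miR-331 and 0.0906 for miR-200b. The remaining shifts to 5p were in miR-200a (1.35), miR-148a (1.25), miR-203a (1.16), miR-28 (1.13) and miR-15b (0.82).

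let-7a and miR-26b moved to 3p. let-7a had 1012 and 621 5p counts with 252 and 187 3p counts in R821E, against 1155 and 1393 5p counts with 139 and 143 3p counts in E5, a shift of -1.30 ± 0.235 (SE, adjusted p = 0.00302) that held without any 1 library. Its 5p count comes from 3 loci and may include reads of near-identical let-7 members, so the ratio is not that of a single hairpin. miR-26b had log2 ratios of 1.77 and 1.48 in R821E, against 2.94 and 4.31 in E5, a shift of -2.00 ± 0.484 (SE, adjusted p = 0.0138), with 24 3p counts in the second E5 library. Its call was lost without E5 replicate 2 (adjusted p = 0.114) and without R821E replicate 2 (adjusted p = 0.0657).

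**Figure D5:**
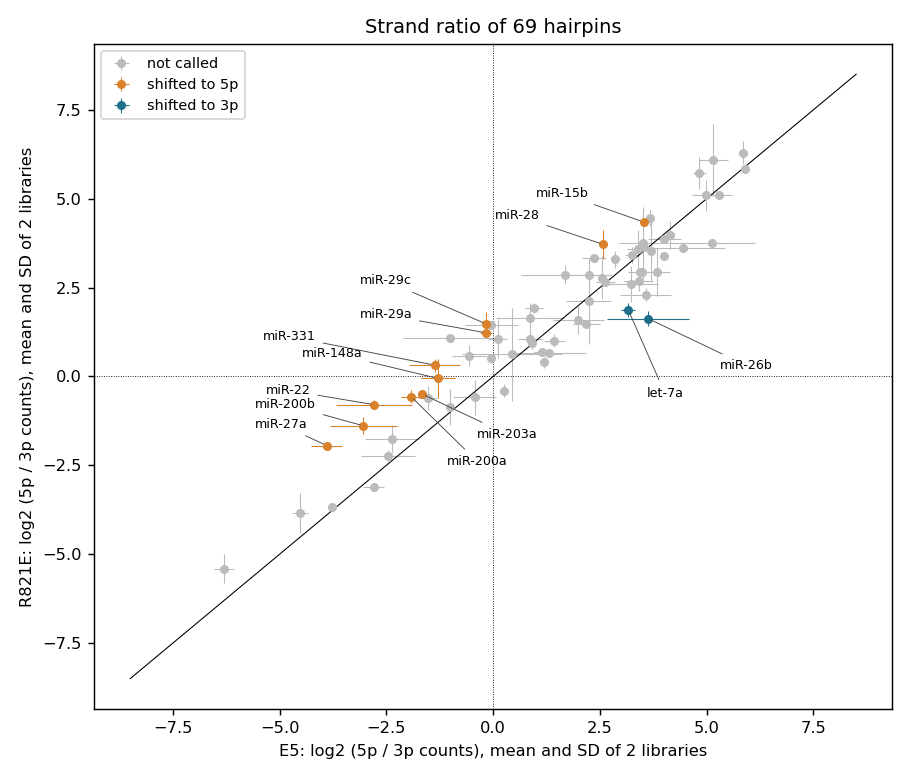
Mean log2 ratio of 5p to 3p counts in R821E (vertical axis) against E5 (horizontal axis) for 69 hairpins, with the SD of 2 libraries as bars and the line of equality. The 11 hairpins shifted to 5p lie above the line, 9 of them left of 0 on the horizontal axis, and the 2 shifted to 3p lie below it. The E5 ratio enters both the horizontal position and the shift. miR-27a stands at a mean of -1.95 in R821E, against -3.90 in E5.

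The length of the hairpin was compared with the shifts for the 57 hairpins with RefSeq arm positions. Measured from the start of the 5p strand to the end of the 3p strand, 36 were at or under the median of 61 bases, of which 8 shifted to 5p and 1 to 3p. Of the 21 longer ones, 1 shifted to 5p and 1 to 3p. Over all 102 hairpins with both arms tested, 21 had a fall in the 3p strand alone, 3 in the 5p strand alone and 5 in both, while 15 had a rise in the 5p strand alone, 5 in the 3p strand alone and 6 in both. Against the spike-ins 28 were lower in the 3p strand alone, 21 in the 5p strand alone and 22 in both.

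The entries that separated R821E from E5 were followed in the other rescues. Of the 51 falls, R821E was below all 10 other libraries in 49, a state that held for 21.9% of all tested entries. The falls were chosen for being lower than in E5, so that share is not a like one. Both R821E libraries were below both E5 libraries in 120 tested entries, and below all 10 others in 82 of these. Of the 61 rises, R821E was above all 10 others in 60, against 24.6% of all tested entries. Both R821E libraries were above both E5 libraries in 122 tested entries, and above all 10 others in 92 of these. E5 stood above all 10 others in 4 of the falls, against 6 of 374 tested entries, and below them in 1 of the rises, against 6 of 374. These counts, which depend in part on how the entries were chosen, were added after values were seen. The E5 mean lay between those of R821E and WT in 27 of the 51 falls and 45 of the 61 rises, and in 215 of all 374 tested entries. miR-25-3p was such an entry, with R821E lowest, E5 between and WT highest.

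R821A and A5 offer a comparison that shares no library with R821E and E5. R821A minus A5 gave 0 calls among 374 entries (0%) with edgeR, with 27 at an unadjusted p under 0.05, and 0 calls with DESeq2 and with limma-voom. With the 4 libraries of that comparison alone 7 were called, and with no filter 5. The difference between the comparisons, R821E minus E5 less R821A minus A5, was called in 77 entries (20.6%), 39 above 0 (10.4%) and 38 below (10.2%), of which 67 were also called between R821E and E5. This number was unstable: leaving out the first or the second library gave 11 and 34 calls for R821E, 81 and 10 for E5, 6 and 54 for R821A, and 0 and 51 for A5. In the case of 0 calls, edgeR without A5 replicate 1, 101 entries stood at an unadjusted p under 0.05. With TMM factors over all entries the direction was 7 above 0 and 43 below, and with library totals 5 and 82. miR-25-3p had a log2 fold change of -1.69 between R821E and E5 and of -0.41 between R821A and A5, a difference of -1.28 ± 0.215 (SE, adjusted p = 0.00837). For miR-27a-3p the pair of values was -1.48 and 0.05, a difference of -1.53 ± 0.312 (SE, adjusted p = 0.0133), and for miR-221-3p -0.68 and 0.41, a difference of -1.09 ± 0.200 (SE, adjusted p = 0.00837). miR-21-5p gave 0.77 and -0.16, a difference of 0.93 ± 0.224 (SE, adjusted p = 0.016).

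Markers of the labelled cell type and of others were summed per 1000000 miRNA counts, without TMM factors. The epithelial list (the miR-200 family, miR-141, miR-192, miR-194 and miR-215) summed to 1265 and 1472 in R821E, against 2516 and 2755 in E5. Of 8 tested entries 3 were called lower, miR-194-5p, miR-200a-3p and miR-200b-3p, beside 13.6% of all tested entries. The others were not called. Their log2 fold changes were -0.98 for miR-200c-3p, -0.71 for miR-429, 0.47 for miR-200a-5p, 0.48 for miR-192-5p and 0.87 for miR-200b-5p. The fibroblast and endothelium list (miR-143, miR-145, miR-126, miR-199a and miR-214) summed to 528 and 646 in R821E, against 1498 and 1787 in E5, with 3 of 5 tested entries lower, miR-126-3p, miR-126-5p and miR-145-5p. The leukocyte list summed to 166 and 174 in R821E, against 429 and 401 in E5, with miR-142-3p lower among 3 tested entries. Its miR-142-5p (-1.29) and miR-146a-5p (0.72) were not called. The neuron list summed to 933 and 993 in R821E, against 952 and 788 in E5. Of its 2 tested entries miR-9-5p was called higher and miR-9-3p (-0.64) was not called. The erythroid list had 3 tested entries and no call, with 1 of its 5 entries at 0 in all 4 libraries, both entries of the muscle list were at 0 in all 4 and hepatocyte miR-122 was at 8.72 and 6.94 in R821E, against 0 and 4.40 in E5. The part of other cell types in the differences between R821E and E5 was not tested.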

How the data were processed

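AQ-seq libraries of HCT116 total RNA were made per the labels' protocols. The authors deposited raw counts per entry (1346 miRNA entries and 30 spike-ins in each of 12 libraries), with no normalisation. Per the submitters' processing notes cutadapt, BWA and bedtools were used, with builds hg38 and mm10. Versions, the role of each build and the treatment of reads that match several entries were not stated there. Libraries of a group differed by more than sampling noise (chi-square per degree of freedom 3.98 to 29.4), so none was treated as a copy. miR-500a-5p and miR-500b-5p carry the same count in all libraries.

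edgeR 4.0.16 in R 4.3.3 was fitted to all 12 libraries (robust quasi-likelihood, 6 residual degrees of freedom, filterByExpr by group, Benjamini-Hochberg threshold 0.05) and tried on simulated data. In that trial a tolerance on the error of fold changes was changed after the first was not met. The simulated replicates had the same spread setting for all entries, which real replicates need not share. The 374 tested entries hold 99.6% of miRNA counts. TMM factors were taken over them, a set settled with the calls under the unfiltered set also known, so both splits are printed. An SE is the log2 fold change divided by the square root of F. Strand ratios were tested with limma 3.58.1, with a variance trend on mean log2 arm count that was also set during the work. Ratios of sparse entries carry an exact 95% counting interval, which covers counting error only, since counts may include PCR copies. Alternatives included DESeq2 1.42.0, limma-voom, other scalings and filters, and each library left out.

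The comparison, lists and tests were chosen with earlier results of these data known. Named entries are the 10 largest falls and rises among calls with at least 100 CPM and groups that do not overlap, the 10 highest in E5, those called higher on the spike-in scale, up to 5 each way for the strand ratio and for the difference from R821A minus A5, hairpins with opposite calls, and list members. Annotation is from GENCODE v29.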

Additional observations from a re-analysis of the deposited data

Results flagged for a closer look

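In 10 named entries the difference between R821E and E5 departed from that between R821A and A5 by the test of the difference itself (edgeR on the TMM scale, R821E minus E5 less R821A minus A5, in log2 units). Of those below 0, miR-193a-3p stood at -2.40, with -2.38 between R821E and E5 and 0.02 between R821A and A5. miR-126-3p stood at -1.79, miR-330-3p at -1.66 and miR-33b-5p at -1.64. miR-130b-3p, at -1.79, combined -1.05 between R821E and E5 with 0.73 between R821A and A5, and its counts gave 141 and 60.8 CPM in R821E, against 188 and 247 CPM in E5. Above 0 were miR-8072 (3.88, a fitted value that depends on very low E5 counts), miR-26b-3p (2.22), miR-548b-5p (1.80), miR-4485-3p (1.77) and miR-1275 (1.68). miR-330-3p had 79.7 and 95.5 CPM in R821E, against 183 and 197 CPM in E5. miR-548b-5p had 208 and 122 CPM in R821E, against 99.7 and 46.1 CPM in E5. All 10 calls were lost without A5 replicate 1, where their adjusted p was 0.0786 to 0.104. Groups of 2 libraries are too small to look for an outlying sample.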

How the results depend on the processing

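The counts of calls between R821E and E5 kept within 1.5 times of 112 on the TMM scale and of 140 on the spike-in scale under every alternative run that kept all 4 libraries, though the split on the TMM scale moved as given above. Leaving out 1 library gave 37 to 96 calls on the TMM scale, 102 to 124 on the spike-in scale, 5 to 13 for the arm ratio and 0 to 81 for the difference from R821A minus A5. That difference had 50 calls with upper quartile factors, 51 with no filter and 50 with TMM factors over all entries, the last added after seeing the data. The arm ratio had 8 calls with at least 100 counts in both arms, where 15 hairpins were tested, and 20 in a fit without the WT libraries, also added. R821A minus A5 had 5 calls with no filter and 7 with only its own libraries. No named result that passed its test in either fit changed sign. The fits that left out an R821A or A5 library were likewise added after seeing the data. Over 37 named entries and 621 alternatives on the TMM scale, 521 kept their side of the threshold, 95 calls were lost and 5 gained. On the spike-in scale the figures were 383, 17 and 7 of 407, for 7 named hairpins 63, 10 and 0 of 73, and for the 10 entries named for the difference from R821A minus A5 132, 56 and 0 of 188. DESeq2 gave no adjusted p for some sparse entries, which are left out of these counts. The cause of these changes was not tested. The replicate numbers do not pair the libraries by the labels, and the deviations of same-numbered R821E and E5 libraries had a correlation of 0.04. With the replicate number as a block, 96 entries were called on the TMM scale (53 higher, 43 lower), 135 on the spike-in scale, 12 hairpins for the arm ratio, 56 for the difference and 0 for R821A minus A5. Depth limits the sparse entries most: 3 counts in the shallower R821E library correspond to 26.0 CPM.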
